A study of Mus musculus with 8 samples.

Results

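Transcripts of Txnip, of thioredoxin (Txn1) and of 8 enzymes that remove reactive oxygen species were followed in haematopoietic stem cells (HSC) and multipotent progenitors (MPP) of mouse bone marrow. The 10 genes, Txnip, Txn1, Prdx1, Prdx2, Prdx5, Gpx1, Gpx4, Sod1, Sod2 and Cat, were picked by symbol out of 53700 genes, with their HSC and MPP counts already known, so their differences between these cell types are given as a description without a test. All 10 were among the 12132 genes with enough counts to be tested. Polyadenylated RNA was measured in 8 libraries, 1 for each of 2 cell types and 4 donor genotypes. Each library was a pool from 5 mice whose marrow had been replaced by a transplant 13 weeks earlier. HSC were CD48- CD150+ and MPP were CD48+ CD150- cells, both of the LSK gate (lineage-negative, Sca-1 and Kit positive) and both of donor origin by CD45.2.

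The donor genotypes are named by their labels. N5 was Nfat5 fl/fl with Vav-Cre, which removes the gene of the osmotic stress factor NFAT5 in blood-forming cells. IFNAR lacked IFNAR1, part of the receptor for type I interferons. DKO combined Nfat5 fl/fl, Vav-Cre and the lack of IFNAR1, and WT was Nfat5 +/+ with Vav-Cre. Every recipient was an irradiated CD45.1 wild-type mouse, so all groups share irradiation, transplantation and wild-type surroundings. Each group held 1 library, and the labels do not say whether HSC and MPP of a genotype came from the same mice. Errors and p-values therefore measure the spread between these libraries, and part of it may be technical. Bulk libraries of this kind cannot tell fewer cells of a type from less RNA per cell.

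Reactive oxygen species are removed in steps. Superoxide dismutases turn superoxide into hydrogen peroxide, and catalase, peroxiredoxins and glutathione peroxidases break down peroxides. Peroxiredoxins are reset by thioredoxin and glutathione peroxidases by glutathione, and both systems draw on NADPH. TXNIP, an alpha-arrestin, binds reduced thioredoxin and also lowers glucose uptake through the transporter GLUT1. Stem cells of the marrow are known for low levels of reactive oxygen species, and loss of Txnip in mice has been tied to loss of HSC quiescence.

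The Txnip promoter is shown because Txnip set HSC and MPP apart more than any of the other 9 genes, and because glucose-sensing MLX-partner factors and FoxO factors are known to act on it. The window is from RefSeq, build GRCm38.p6, plus strand, chr3:96557707-96558006, and runs from 250 bases before the start site to base 50 past it. Capitals mark a FoxO motif and both parts of a carbohydrate response element.
Txnip: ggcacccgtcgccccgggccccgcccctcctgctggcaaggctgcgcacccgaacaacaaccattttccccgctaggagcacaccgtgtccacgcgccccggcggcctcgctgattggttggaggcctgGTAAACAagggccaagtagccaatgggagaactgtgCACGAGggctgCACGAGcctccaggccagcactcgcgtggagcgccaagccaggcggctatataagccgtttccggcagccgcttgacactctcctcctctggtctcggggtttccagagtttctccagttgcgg
The carbohydrate response element, searched as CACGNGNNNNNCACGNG on both strands, lay at positions -85 to -69 from the start site. It was found in 16 of 32851 promoter windows of the same length, 0.0487%, and of the 10 genes in Txnip alone. The FoxO motif GTAAACA lay at -121 to -115 and was found in 3.65% of all windows. RefSeq windows were matched for all 10 genes, 13 windows in all, since Gpx4 has 4.

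Antioxidant response elements, the binding motif of NRF2, were searched as TGACNNNGC on both strands. They were found in 12.4% of all windows and, of the 10 genes, in Prdx1 and Sod1. These 2 stretches are shown with the motif in capitals, plus strand, at chr4:116685456-116685484 and chr16:90220696-90220724.
Prdx1: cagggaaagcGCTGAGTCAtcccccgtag
Sod1: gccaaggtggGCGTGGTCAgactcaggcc
An interferon response element, GAAANNGAAA, was in 3.44% of windows and in none of these 13. The core of the NFAT5 motif, TGGAAA, was in 21.4% of all windows and in those of Txnip and Txn1. The motifs were chosen after the data were seen, and a match describes letters only.

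Total counts ran from 28871700 to 47206000 per library, 13510 to 14781 genes had a count, and mitochondrial genes took 1.76% to 2.56% of counts. Levels are CPM (counts scaled to library size) after TMM scaling. The 10 genes had 2136 to 71066 counts per library. Of 10 HSC markers, 8 were higher in every HSC library than in any MPP library, and all 6 MPP markers were lower. Transcripts of the 2 targeted genes followed the labels only in part. Nfat5 had 22.7, 3.12, 35.5 and 33.2 CPM in HSC labelled N5, IFNAR, DKO and WT, and 7.69, 0.193, 11.5 and 5.59 CPM in MPP in the same order. Ifnar1 had 126, 113, 35.1 and 122 CPM in HSC and 87.9, 43.8, 125 and 37.2 CPM in MPP, again as N5, IFNAR, DKO and WT. Nfat5 was thus lower under N5 than under WT in HSC but lowest under IFNAR in both cell types, and under DKO it was above WT in both. Ifnar1 was lower under IFNAR and DKO than under N5 and WT in HSC, though under IFNAR only from 122 to 113 CPM against WT. In MPP the DKO library was the highest, and the IFNAR library was also above WT. The labels do not name the deleted exons, and counts per gene include exons outside any deleted part. Why the levels depart from the labels was not tested, and each genotype below is that of the label.

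Txnip was the gene of the 10 that most separated HSC from MPP. Its level was 977, 1310.4, 1500.2 and 1374 CPM in the HSC libraries labelled N5, IFNAR, DKO and WT, against 513, 621, 633 and 514 CPM in MPP in the same order. Every HSC library was above every MPP library. The means were 1290.3 ± 224 CPM in HSC and 570.1 ± 65.5 CPM in MPP (SD, n = 4 each), a 2.26-fold ratio. The fitted log2 fold change, HSC minus MPP, was 1.17 (SE 0.12). Within the genotypes N5, IFNAR, DKO and WT the log2 difference was 0.93, 1.08, 1.25 and 1.42, so HSC was higher in 4 of 4. Txnip alone took 0.0970% to 0.151% of the counts of an HSC library and 0.0506% to 0.0635% of those of an MPP library. Of 2340 genes with a mean of at least 100 CPM, 124 (5.30%) had a larger absolute log2 fold change.

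Txn1, the cytosolic thioredoxin that TXNIP binds, was not set apart in this way. It had 208, 210.1, 269 and 169.9 CPM in HSC labelled N5, IFNAR, DKO and WT, and 238, 229.9, 251 and 264 CPM in MPP in the same order. The groups overlapped, since the DKO library was the highest of all 8 and the WT library the lowest, both of them HSC. Means were 214 ± 41.1 CPM in HSC and 246 ± 15 CPM in MPP (SD, n = 4 each).

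**Figure D1:**
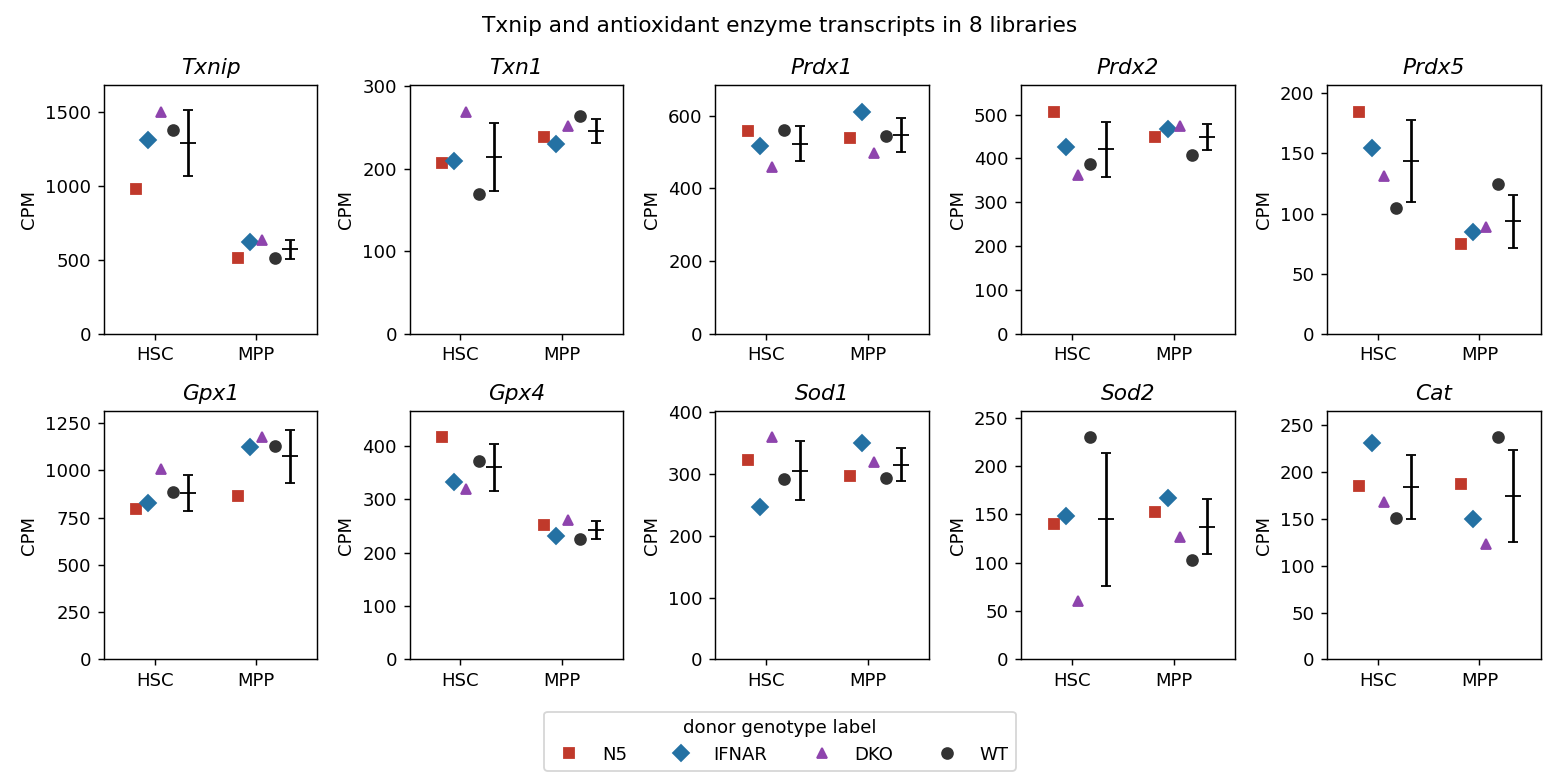
Level of each of the 10 genes in CPM (y axis, from 0, a scale of its own per panel) in the 4 HSC libraries (left) and 4 MPP libraries (right) of each panel, with symbols for the genotype label and a bar for the mean with its SD. The HSC and MPP libraries are apart for Txnip and Gpx4 and overlap for the other 8 genes.

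Peroxiredoxins use a cysteine to reduce peroxides. Prdx1 and Prdx2, the abundant cytosolic forms, had overlapping levels in both cell types. Prdx1 had 558, 517, 458 and 559 CPM in HSC labelled N5, IFNAR, DKO and WT and 538, 611, 497 and 543 CPM in MPP. Prdx2 had 507, 426, 363 and 387 CPM in HSC and 449.8, 466, 474 and 407 CPM in MPP, in the same order of labels. For both genes the ranges overlapped, with log2 fold changes of -0.07 (SE 0.11) for Prdx1 and -0.10 (SE 0.13) for Prdx2.

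Prdx5, found in mitochondria, peroxisomes and cytosol, was higher in HSC for 3 of the 4 genotypes. It had 185, 155, 131 and 105 CPM in HSC labelled N5, IFNAR, DKO and WT, and 75.0, 84.9, 89.1 and 125 CPM in MPP in the same order. The groups overlapped because the WT label went the other way, being the lowest of the HSC libraries and the highest of the MPP libraries. The log2 differences were 1.3, 0.87, 0.56 and -0.25 for N5, IFNAR, DKO and WT, and the fitted one was 0.62 (SE 0.30).

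The 2 glutathione peroxidases lay on opposite sides. Gpx4, which reduces lipid peroxides in membranes and thereby blocks ferroptosis, had 416, 332, 320.0 and 372 CPM in HSC labelled N5, IFNAR, DKO and WT, against 252, 231, 261 and 226 CPM in MPP in the same order. Every HSC library was above every MPP library, with means of 360.0 ± 43.5 CPM in HSC and 243 ± 17.1 CPM in MPP (SD, n = 4 each), a 1.48-fold ratio. The processed pseudogene Gpx4-ps2 carried 191 to 431 counts per library, 2.23% to 3.29% of the Gpx4 count, so a small share of reads may be split between them. Gpx1, which removes hydrogen peroxide in cytosol and mitochondria, had 794, 828, 1007 and 885 CPM in HSC and 864, 1124, 1174 and 1127 CPM in MPP, as N5, IFNAR, DKO and WT. It was lower in HSC within 4 of 4 genotypes, by log2 differences of -0.12, -0.44, -0.22 and -0.35, but the groups overlapped, since the MPP library labelled N5 lay at the level of the HSC libraries.

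Superoxide dismutases and catalase had no shared direction. Sod1, the cytosolic copper and zinc enzyme, had 323, 247, 359 and 292 CPM in HSC labelled N5, IFNAR, DKO and WT and 296, 350.3, 318 and 293 CPM in MPP, a log2 fold change of -0.05 (SE 0.16). Cat, the peroxisomal catalase, had 184, 231, 168 and 151 CPM in HSC and 187, 149.7, 123 and 237 CPM in MPP in the same order. Its WT libraries lay at the ends of the 2 groups, the lowest in HSC and the highest in MPP. Sod2, the mitochondrial manganese enzyme, had 140.2, 148, 60.5 and 229.6 CPM in HSC and 152, 167, 126 and 103 CPM in MPP, again as N5, IFNAR, DKO and WT. Its lowest and its highest library of all 8 were both HSC, DKO and WT, and its log2 differences were -0.12, -0.17, -1.06 and 1.16 for those 4 labels.

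**Figure D2:**
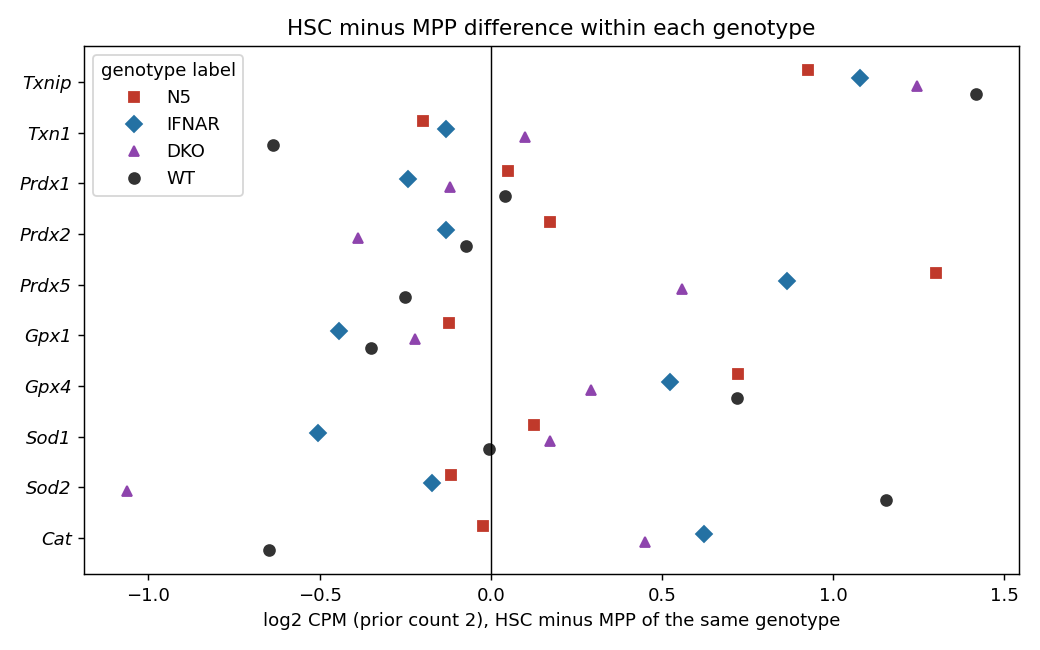
Log2 difference in CPM (prior count 2) between the HSC and the MPP library of the same genotype label (x axis), for each of the 10 genes (rows), with 1 symbol per genotype. All 4 symbols lie right of 0 for Txnip and Gpx4, all 4 lie left of 0 for Gpx1, and those of Sod2 run from -1.06 for DKO to 1.16 for WT.

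Set against all genes, HSC and MPP libraries were apart with HSC above for 2 of the 10 genes and with HSC below for 0, where 4.73% and 5.65% of the 12132 genes were so. The direction was the same within all 4 genotypes for 3 of the 10, for 22.5% of all genes and for 30.9% of genes of at least 100 CPM. The median log2 fold change of the 10 genes was -0.05, against -0.10 for all genes tested, and their median absolute change was 0.16, against 0.57 for all genes and 0.31 for genes of at least 100 CPM. In edgeR's quasi-likelihood test with Benjamini-Hochberg adjustment, 0 of the 10 genes and 2 of 12132 genes (0.0165%) had an adjusted p under 0.05. Without adjustment 3 of the 10 and 1225 of all genes (10.1%) were under 0.05, and DESeq2 called 3 of the 10 and 1880 of all genes (15.5%), and limma-voom 1 of the 10 and 156 of all genes (1.29%). Since the 10 genes were picked with this contrast known, these counts are given for reference only.

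Megakaryocyte markers summed to 1238 to 1710.1 CPM in HSC libraries, also higher than the 139.8 to 308 CPM in MPP libraries. HSC lay apart above for 6 of 8 markers. Of 7 tested markers, 6 had a higher and 1 a lower fitted level in HSC. Erythroid markers summed to 1721 to 2043 CPM in HSC and 779.6 to 1164 CPM in MPP, most of it Car2, but of 9 tested markers 5 had a higher and 4 a lower fitted level in HSC, with Car2 among those apart above and Car1 among those apart below. The 4 globin genes summed to 246 to 858 CPM in HSC and 156 to 271 CPM in MPP. B cell markers summed to 34.7 to 107 CPM in HSC and 919 to 1930.2 CPM in MPP, with Pax5 and Igll1 at 0 in HSC. Neutrophil markers summed to 578 to 682 CPM in HSC and 554 to 1964 CPM in MPP. The MPP sum was carried by Elane, with 0 to 100.5 CPM in HSC and 418 to 1397 CPM in MPP, and 6 of the 8 markers had a higher fitted level in HSC. Monocyte markers summed to 655 to 1107 CPM in HSC and 502 to 1019 CPM in MPP, with Ly86, F13a1 and Ccr2 at 0 in HSC, and most of the sum was Lyz2. T and NK cell markers summed to 34.0 to 67.0 CPM in HSC and 291 to 371 CPM in MPP. Only 1 of these 7 markers had enough counts to be tested. Cd3e, Cd3g, Cd3d and Gzma were at 0 in all 8 libraries, Il2rb in all of HSC and Klrb1c in all of MPP. Mast cell and basophil markers summed to 0 to 40.7 CPM in HSC and 40.7 to 149 CPM in MPP, and stromal and endothelial markers to 0.204 to 75.7 CPM in HSC and 4.99 to 67.2 CPM in MPP, with Cdh5, Col1a1 and Lepr at 0 in all 8. The part of these markers in the Txnip and Gpx4 differences, and in those of the other redox genes below, was not tested.

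Ratios of 2 genes within a library do not depend on library size or scaling. Counts of Txnip per count of Txn1 were 4.71, 6.24, 5.57 and 8.09 in HSC labelled N5, IFNAR, DKO and WT, against 2.16, 2.7, 2.52 and 1.95 in MPP in the same order. Txnip counts thus stood higher relative to Txn1 counts in every HSC library, 6.15 ± 1.44 in HSC and 2.33 ± 0.340 in MPP (SD, n = 4 each). The ratio runs over counts and not over molecules, since transcript lengths differ. Gpx4 per Gpx1 was 0.416 ± 0.0848 in HSC and 0.230 ± 0.0424 in MPP, and the groups did not overlap. Sod2 per Sod1 was 0.434, 0.600, 0.169 and 0.787 in HSC and 0.514, 0.477, 0.397 and 0.352 in MPP, as N5, IFNAR, DKO and WT. This ratio of transcript counts varied more among HSC libraries, with DKO and WT at its ends. Prdx5 per Prdx1 was 0.276 ± 0.0622 in HSC and 0.172 ± 0.0429 in MPP, with overlap.

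**Figure D3:**
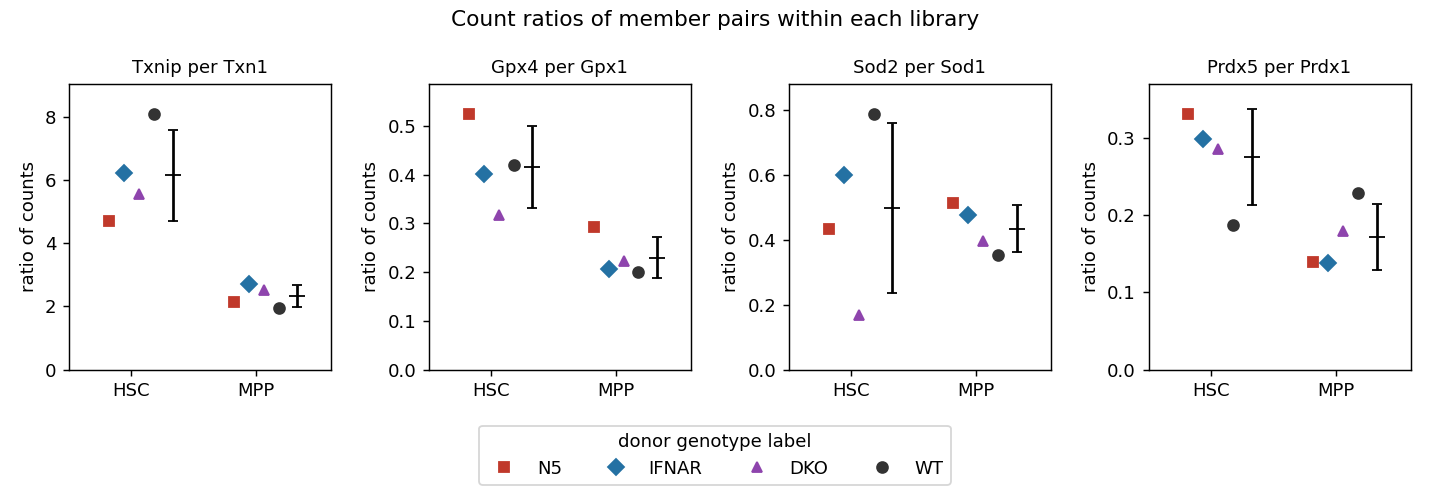
Ratio of the counts of 2 genes in the same library (y axis, from 0), for 4 pairs of genes, in HSC (left) and MPP (right), with symbols for the genotype label and a bar for the mean with its SD. Txnip per Txn1 is 4.71 to 8.09 in HSC and 1.95 to 2.7 in MPP, and Sod2 per Sod1 spans 0.169 to 0.787 in HSC.

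The genes also differed in how far libraries of 1 cell type lay apart. The ratio of the highest to the lowest library was 1.22 for Prdx1, the steadiest of the 10 in HSC, and 3.8 for Sod2, with 1.77 for the next widest. In MPP the 10 ratios ran from 1.15 to 1.92. Among 2076 genes at 60 CPM or more in all 8 libraries, a floor chosen after the values were seen, the median ratio was 1.66 in HSC and 1.48 in MPP, and the 10 genes had medians of 1.49 in HSC and 1.23 in MPP. The spread was wider in HSC for 7 of the 10 and for 64.9% of the 2076 genes. Of these genes, 0.867% were more spread than Sod2 in HSC, while 92.6% were more spread than Prdx1. Sod2 itself just passed the floor, with 60.5 CPM in its lowest library, HSC labelled DKO. The floor leaves out genes with a lower library, which can be widely spread, so the 0.867% holds only for genes past it.

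The effect of the label Nfat5-deficient was tested over both cell types, N5 and DKO against IFNAR and WT, with cell type and Ifnar1 loss as terms. In edgeR's quasi-likelihood test 0 of 12132 genes (0%) were called at an adjusted p under 0.05, and so 0 of the 10. Without adjustment 338 genes, 2.79%, were under 0.05 and none of the 10. DESeq2 called 166 genes (1.37%) and limma-voom 0 (0%), none of them among the 10. Txnip had a log2 fold change of -0.07 (SE 0.13), with -0.49 and 0.20 in HSC (N5 minus WT and DKO minus IFNAR) and -0.0025 and 0.03 in MPP, so the 2 HSC pairs went opposite ways. Prdx1 was lower in 4 of 4 pairs, with differences of -0.0037 and -0.17 in HSC and -0.01 and -0.30 in MPP, and the fitted value was -0.12 (SE 0.11, adjusted p = 1 in edgeR), and 11.98% of all genes had 1 direction in all 4 pairs. Of the 10 genes, Sod2 had the largest value, -0.48 (SE 0.37, adjusted p = 1 in edgeR). It ran from -0.84 to -0.15 on leaving out each library in turn. Its differences were -0.71 and -1.29 in HSC and 0.56 and -0.40 in MPP. In HSC alone the fitted value was -1 and in MPP alone 0.093. The other 7 lay between -0.23 for Cat and 0.15 for Txn1.

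The label Ifnar1-deficient, IFNAR and DKO against N5 and WT, was tested in the same fit. By edgeR 0 of 12132 genes (0%) were called, 0 of the 10 among them, and 398 genes (3.28%) and none of the 10 were under 0.05 without adjustment. DESeq2 called 233 genes (1.92%) and limma-voom 1 (0.00824%), none of them among the 10. Txnip had the smallest unadjusted p of the 10. It had 1310.4 and 1500.2 CPM in HSC labelled IFNAR and DKO, against 977 and 1374 CPM in HSC labelled N5 and WT. In MPP it had 621 and 633 CPM under the labels IFNAR and DKO, against 513 and 514 CPM under N5 and WT. The deficient libraries were thus the higher ones in MPP and overlapped the intact ones in HSC. The log2 fold change was 0.28 (SE 0.13), 0.18 to 0.39 on leaving out each library in turn, and higher in 3 of 4 pairs, with an adjusted p of 1 in edgeR (unadjusted 0.0728). Cat differed by 0.61 and -0.13 in HSC (IFNAR minus WT and DKO minus N5) and by -0.66 and -0.61 in MPP. Apart from Txnip, values ran from -0.37 for Sod2 to 0.17 for Gpx1. On leaving out each library in turn they ran from -0.73 to -0.039 for Sod2 and from 0.076 to 0.27 for Gpx1, and Sod2 was at -0.93 in HSC alone and 0.22 in MPP alone. Over both cell types, deficient and intact libraries overlapped for all 10 genes under either label. For Txnip and Gpx4 the gap between HSC and MPP brings this with it, since each label holds libraries of both. Without overlap, 1.26% of all genes tested lay above and 1.01% below under the Nfat5 label, and 1.01% and 1.37% under the Ifnar1 label. Within a cell type, with 2 libraries against 2, the Nfat5 label set Sod1 (deficient above) and Sod2 (below) apart in HSC, and Gpx4 (above) and Prdx1 (below) in MPP. The Ifnar1 label set Txn1 (above), Prdx1 and Gpx4 (both below) apart in HSC, and Txnip, Prdx2 and Sod1 (all above) and Cat (below) in MPP. These were 2, 2, 3 and 4 of the 10, where 32.9%, 32.9%, 33.1% and 33.8% of all genes were apart.

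**Figure D4:**
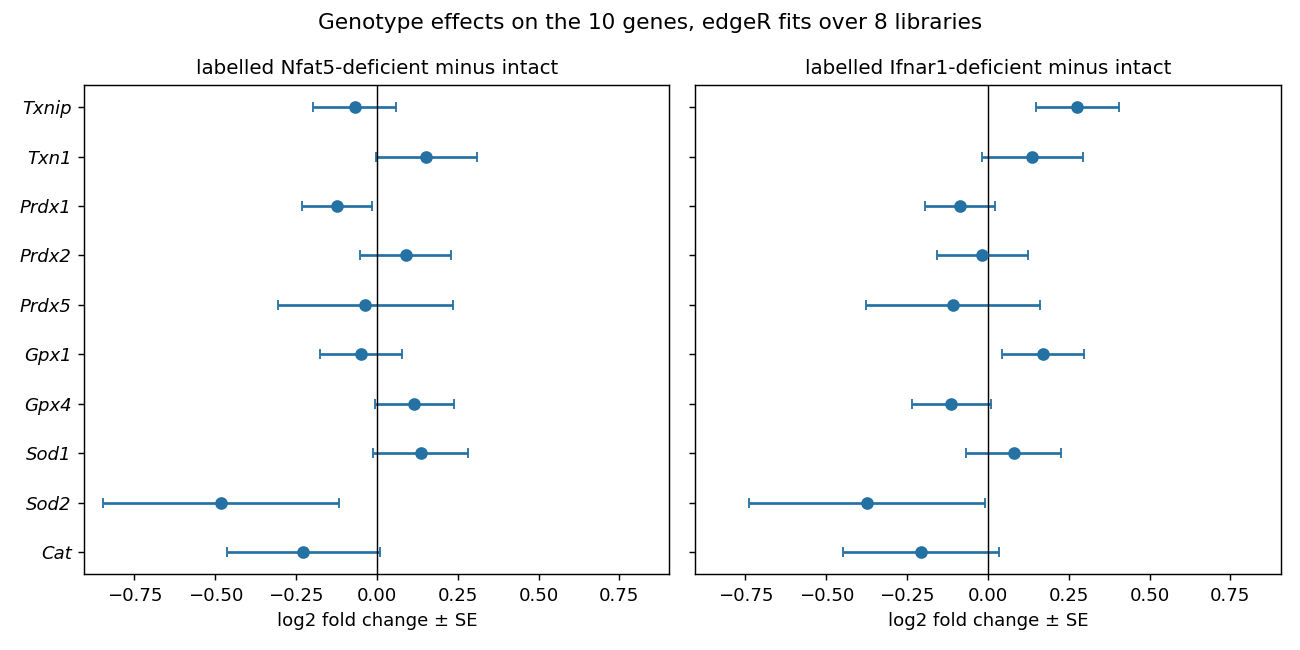
Log2 fold change with its SE (x axis, edgeR over 8 libraries) of each of the 10 genes (rows), for libraries labelled Nfat5-deficient minus intact (left) and Ifnar1-deficient minus intact (right). No gene is past the threshold, Sod2 has the widest error in both panels, and Txnip lies at 0.28 in the right panel.

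Whether genotype effects differ between HSC and MPP was tested with interaction terms. Of 12132 genes, 0 (0%) were called in each of the 3 interactions by edgeR, and 0 of the 10, none of which was under 0.05 without adjustment. All genes counted, 536, 585 and 404 were under 0.05 without adjustment for cell type by Nfat5 loss, cell type by Ifnar1 loss and Nfat5 by Ifnar1 loss, and DESeq2 called 585 (4.82%), 607 (5%) and 393 (3.24%), with none of the 10 among them, and limma-voom called 0 in each. Cat had the smallest unadjusted p of the 10 in these terms, with an effect of Ifnar1 loss that was 0.86 higher on the log2 scale in HSC than in MPP (SE 0.36, unadjusted p = 0.0581, adjusted p = 0.999 in edgeR). For Sod2 the effect in HSC minus that in MPP was -0.93 (SE 0.67) for Nfat5 loss and -0.99 (SE 0.65) for Ifnar1 loss. For Txnip these were -0.16 (SE 0.26) and -0.02 (SE 0.28), and for Gpx1 the effect of Nfat5 loss with Ifnar1 lost minus that with Ifnar1 intact was 0.44 (SE 0.20).

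Around the 10 genes, 72 further genes of redox control were listed, and 64 of them were tested. The lists were chosen with earlier results of these data known. Their counts and shares for HSC minus MPP, here and below, are therefore given for reference only. In HSC minus MPP 26 were higher and 38 lower, with a median of -0.09 against -0.10 for all genes, and 0 were called by edgeR (smallest adjusted p = 0.244). Without adjustment 13 of the 64 (20.3%) were under 0.05, against 10.1% of all genes. DESeq2 called 15 of the 64 (23.4%), against 15.5% of all genes, and limma-voom 0, against 1.29%. For Nfat5 loss 0 were called by edgeR, 0 without adjustment and 0 by DESeq2 and limma-voom, and for Ifnar1 loss 0 by edgeR, 2 without adjustment and 0 by DESeq2 and limma-voom. HSC and MPP did not overlap for 12 of the 64, with 4 higher and 8 lower in HSC, where 4.73% and 5.65% of all genes tested were so.

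In the other parts of the thioredoxin system, 6 of 11 genes were higher and 5 lower (median 0.03). Prdx3, the mitochondrial peroxiredoxin, had 184, 137, 147 and 189 CPM in HSC labelled N5, IFNAR, DKO and WT, against 128, 109, 104 and 80.0 CPM in MPP in the same order, without overlap. Txnrd2, the mitochondrial thioredoxin reductase, had 102, 64.7, 98.2 and 83.9 CPM in HSC and 39.4, 39.0, 79.2 and 50.5 CPM in MPP, higher in 4 of 4 pairs with overlap. Those 2 and the mitochondrial thioredoxin Txn2 belong to the mitochondrial branch, and Txn2 had a log2 fold change of -0.09. Txnrd3, a thioredoxin and glutathione reductase, had 0.82 and the methionine sulfoxide reductase Msra -0.57. Of the glutathione genes, 6 of 16 were higher and 10 lower (median -0.11). Gsr, which regenerates glutathione, was lower in HSC in 4 of 4 pairs, with 35.5 to 132 CPM in HSC and 81.5 to 166 CPM in MPP, and so was Mgst1, a membrane glutathione transferase, with 0.460 to 8.20 CPM in HSC and 7.76 to 26.6 CPM in MPP. Gstm5 was at 0.79 and Mgst3 at -0.84, both with overlap and Mgst3 at 0 in the HSC library labelled IFNAR. Gpx7, a glutathione peroxidase of the endoplasmic reticulum that was picked after its values were seen, had 7.96 to 17.6 CPM in HSC and 3.51 to 5.62 CPM in MPP.

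Genes of the NRF2 system and of haem and iron handling had a higher fitted level in HSC for 9 of 11, as had 44.2% of all genes tested, with a median log2 fold change of 0.51. Ftl1, the light chain of the iron store ferritin, had 1781, 1826, 2098 and 1719 CPM in HSC labelled N5, IFNAR, DKO and WT, against 1194, 1361, 1236 and 1325 CPM in MPP in the same order, without overlap. Hmox2, the constitutive haem oxygenase and picked after its values were seen, had 199 to 266 CPM in HSC and 146 to 178 CPM in MPP, also apart. Its inducible relative Hmox1 (15 to 50.7 CPM in HSC, 4.60 to 38.3 CPM in MPP), the biliverdin reductase Blvrb (35.3 to 76.3 CPM in HSC, 13.5 to 39.3 CPM in MPP) and Keap1, the inhibitor of NRF2 (93.8 to 240.4 CPM in HSC, 77.0 to 104 CPM in MPP), were higher in 4 of 4 pairs with overlap. Sod3 was at 0 in all 8 libraries.

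Of the NADPH supply genes, all 9 tested had a lower fitted level in HSC (median -0.56), as had 55.8% of all genes tested. No gene of this list was called by edgeR, nor of the oxidase list. Tkt, a transketolase of the pentose phosphate pathway, had 514, 392.3, 523 and 598 CPM in HSC labelled N5, IFNAR, DKO and WT, against 773, 1002, 734 and 642 CPM in MPP in the same order, without overlap. Taldo1, its partner transaldolase, with 276 to 424 CPM in HSC and 488 to 499.7 CPM in MPP, and the mitochondrial isocitrate dehydrogenase Idh2, with 301 to 450.1 CPM in HSC and 511 to 599 CPM in MPP, were also apart and were picked after their values were seen. G6pdx, the entry enzyme of the pathway, was lower in 4 of 4 pairs (-0.89) and the malic enzyme Me2 in 3 of 4 (-0.96). Nnt stands under 2 identifiers in the table, so its -0.74, from the first of them, is uncertain.

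The phagocyte NADPH oxidase makes superoxide, and its 6 subunits all had a lower fitted level in HSC (median -1.18). Some cell type markers lay the same way, with 4 of 6 monocyte and 4 of 8 B cell markers lower in HSC without overlap. The monocyte sum, mostly Lyz2, overlapped, at 655 to 1107 CPM in HSC and 502 to 1019 CPM in MPP. Of 8 neutrophil markers, 6 had a higher and 2 a lower fitted level in HSC. The part of these cell types in the oxidase values was not tested. Rac2, the GTPase that activates the complex, had 437, 429.7, 391 and 387 CPM in HSC labelled N5, IFNAR, DKO and WT, against 595, 635, 523 and 579 CPM in MPP in the same order, without overlap. Ncf1, a cytosolic subunit, had 14.4, 0, 33.9 and 13.9 CPM in HSC and 114, 134, 109 and 44.0 CPM in MPP, and Ncf4, another, had 46.0, 42.6, 31.9 and 0 CPM in HSC and 54.8, 99.7, 67.0 and 73.3 CPM in MPP. The HSC library labelled IFNAR had 0 for Ncf1 and that labelled WT had 0 for Ncf4. Cybb, the catalytic subunit, was scattered, with 0 to 26.8 CPM in HSC and 0 to 39.2 CPM in MPP.

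Among the relatives, regulators and targets of TXNIP, 5 of 11 were higher and 6 lower (median -0.08). The alpha-arrestins Arrdc3 and Arrdc2 overlapped between the cell types. Arrdc3 had 50.5, 59.3, 0 and 59.9 CPM in HSC labelled N5, IFNAR, DKO and WT and 87.8, 58.2, 104 and 37.7 CPM in MPP, and Arrdc2 had 0, 0, 8.89 and 25.4 CPM in HSC and 9.80, 9.66, 9.54 and 17.3 CPM in MPP. Arrdc4, the closest relative, was at 0.70 with overlap. Foxo3, a FoxO factor needed for HSC maintenance, was lower without overlap, at 6.49 to 24.7 CPM in HSC and 25.6 to 47.1 CPM in MPP, and so was Mlx, the partner of the glucose-sensing factors, at 28.7 to 44.5 CPM in HSC and 47.7 to 53.8 CPM in MPP (picked after its values were seen). Slc2a1, which encodes GLUT1, was higher in 3 of 4 pairs, with 113, 64.8, 115 and 80.7 CPM in HSC and 23.6, 33.8, 61.6 and 84.7 CPM in MPP. Arrdc5 and Mlxipl were at 0 in all 8 libraries. For HSC minus MPP, DESeq2 called Foxo4 and Mlxip of this list but neither Foxo3 nor Mlx, again given for reference only.

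**Figure D5:**
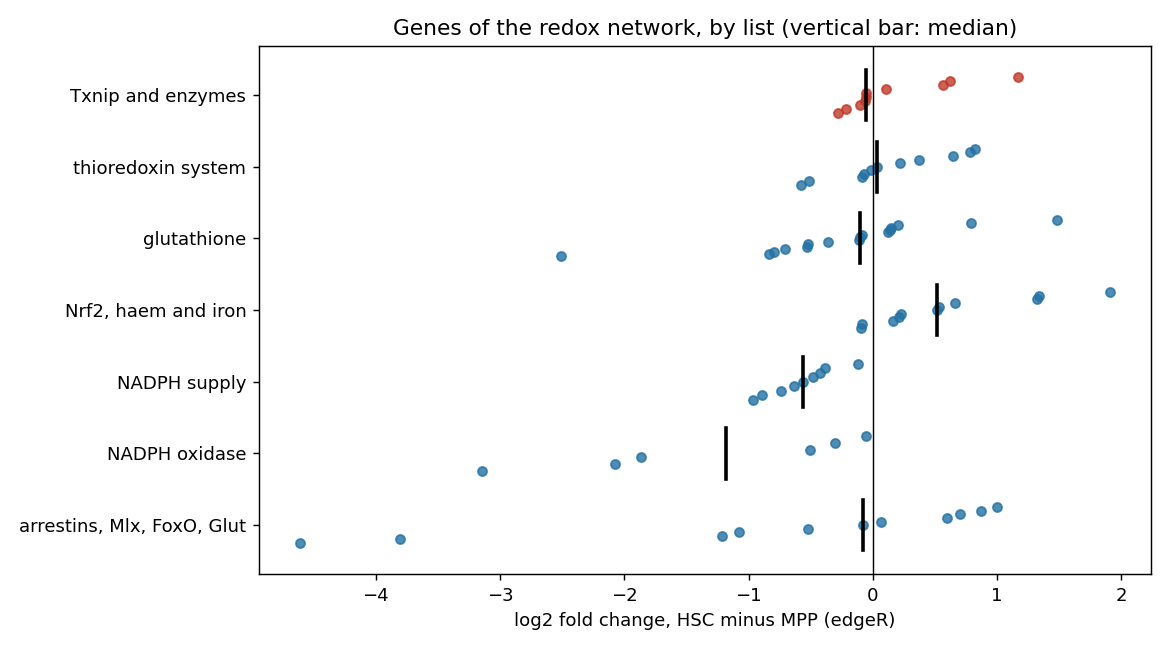
Log2 fold change, HSC minus MPP (x axis, edgeR), of each tested gene of the 10 and of 6 lists of redox genes (rows), with a vertical bar for the median of each row. The rows for NADPH supply and NADPH oxidase lie wholly left of 0, with medians of -0.56 and -1.18, and that for NRF2, haem and iron has a median of 0.51.

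The genes most like Txnip over the 8 libraries were sought by the root mean square difference of log2 CPM, each gene centred on its own mean, among 8894 candidates. Rgs1, a regulator of G protein signalling, was nearest at 0.13, followed by the serpin Serpina3g at 0.18, the small GTPase Rab38 at 0.19, the transferrin receptor Tfr2 at 0.20 and the oxidoreductase Htatip2 at 0.20. A flat profile lay 0.62 from Txnip, and the median candidate 0.95. Rgs1 had 149.5, 214, 249 and 214 CPM in HSC labelled N5, IFNAR, DKO and WT, against 80.0, 83.8, 81.5 and 70.1 CPM in MPP in the same order, and so shared Txnip's lowest HSC library, N5, and its highest, DKO. Serpina3g had 804, 1151, 1399 and 978 CPM in HSC and 337, 393, 489 and 391 CPM in MPP. All 5 were higher in every HSC library than in any MPP library, but they were picked for likeness to Txnip over these same 8 libraries. Neither this nor the lowest and highest HSC library that Rgs1 shared with Txnip is a separate finding. RefSeq windows were matched for Serpina3g, Tfr2 and Htatip2. Of the motifs searched, TGGAAA was found in Tfr2 and TGACNNNGC in Htatip2, and the carbohydrate response element of Txnip in none of these windows.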

How the data were processed

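Polyadenylated RNA had been extracted with a kit for small cell numbers and amplified by Smart-Seq2, per the labels, without molecular identifiers or strand. Per the submitters' processing notes, STAR 2.7.8a, RSEM 1.3.0 and GRCm39 were used. The counts deposited by the authors, whole numbers without normalization, stood in 1 table. Neither the annotation release nor the read filters nor the rounding step is given in the sources used here. No strand was marked, and genes that overlap or have copies may share reads.

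Columns were matched to samples by name, and genes were followed by identifier. Counts were tested with edgeR 4.0.16 (legacy quasi-likelihood, TMM, filterByExpr by cell type, R 4.3.3), and p-values were adjusted by Benjamini-Hochberg over 12132 genes holding 99.5% of counts. HSC minus MPP was fitted with a genotype block (3 residual degrees of freedom). The genotype fit held cell type, Nfat5 loss and Ifnar1 loss (4), to which single interactions were added (3). Single libraries were compared as log2 CPM with a prior count of 2. From each redox list, up to 4 genes of at least 10 CPM with the largest fold change were named. The 10 genes and all lists were chosen with earlier results of these data known. Alternatives were RLE, library totals, other filters, DESeq2 1.42.0, limma-voom (3.58.1), bias-adjusted quasi-likelihood, other models and leaving out each library. Common dispersion was 1.05 to 1.14.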

Additional observations from a re-analysis of the deposited data

Results flagged for a closer look

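In MPP, Gpx1 had 864 CPM in the library labelled N5, against 1124, 1174 and 1127 CPM in those labelled IFNAR, DKO and WT. The low library stood apart from the other 3, with a gap to its neighbour of 0.840 of the whole range, above Dixon's 95% critical value for 4 values. Chance alone gives such a flag in about 1 of 20 groups, and 20 groups were looked at, 10 genes in 2 cell types.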

How the results depend on the processing

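For HSC minus MPP, main counts were 2 genes called and 0 of the 10. RLE, library totals and no filter also gave 2 and 0. The counts were 23 and 1 with a filter of 10 CPM in 4 libraries, 1880 and 3 with DESeq2, 156 and 1 with limma-voom, 107 and 1 with bias-adjusted quasi-likelihood and 207 and 1 without the genotype block. Both were 0 on leaving out each of the 8 libraries. Where 1 of the 10 was called it was Txnip, and DESeq2 added Gpx4 and Gpx1. The 10 genes were picked with this contrast known, so these calls are given for reference only. Under the genotype block, leaving out 1 library also takes its partner of the same genotype out of the comparison. Such fits have fewer residual degrees of freedom, and those without either library of a genotype gave nearly the same values. Log2 fold changes without 1 library ran from 1.08 to 1.25 for Txnip, 0.51 to 0.66 for Gpx4, 0.39 to 0.91 for Prdx5, -0.34 to -0.23 for Gpx1 and -0.45 to 0.28 for Sod2. For Nfat5 loss DESeq2 called 166 genes, and for Ifnar1 loss DESeq2 called 233, limma-voom 1 and bias-adjusted quasi-likelihood 1. DESeq2 called 585, 607 and 393 genes for cell type by Nfat5 loss, cell type by Ifnar1 loss and the 2 losses. None of the 10 was called in any of these.

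None of the genotype values was called, and several changed sign, among them those of Sod2, the largest for Nfat5 loss, which was -1 and -0.93 in HSC alone for the 2 losses. For Nfat5 loss, Prdx5 was 0.038 with limma-voom, 6.3e-05 with bias-adjusted quasi-likelihood and 0.29 in HSC alone. Gpx1 was 0.066 in HSC alone, and Txnip 0.026, Sod1 -0.048 and Sod2 0.093 in MPP alone. For Ifnar1 loss, Prdx2 was 0.00029 with library totals. In HSC alone Prdx5 was 0.030, Sod1 -0.048 and Cat 0.23. In MPP alone Txn1 was -0.052, Prdx1 0.036, Prdx2 0.14, Gpx4 0.051 and Sod2 0.22. Leaving out each library gave, for Nfat5 loss, -0.14 to 0.049 for Gpx1, -0.026 to 0.20 for Prdx2, -0.24 to 0.19 for Prdx5 and -0.13 to 0.041 for Txnip, and for Ifnar1 loss -0.075 to 0.099 for Prdx2, -0.30 to 0.13 for Prdx5 and -0.027 to 0.20 for Sod1. The cause of these changes was not tested. HSC and MPP were paired by genotype label in the fit, and without that block 207 genes were called. Replicate numbers pair nothing here, since each group held 1 library.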

Other observations

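Several neighbours of the 10 genes were at or near 0 in single libraries although counts were high in others, and these were picked after their values were seen. Arrdc3, an alpha-arrestin, had 0 counts in the HSC library labelled DKO and 1547, 2320 and 2066 in HSC labelled N5, IFNAR and WT, with 1139 to 3684 in the MPP libraries. Srxn1, the sulfiredoxin that restores overoxidised peroxiredoxins, had 0 counts in the same DKO library and 825, 1041 and 1500 in HSC labelled N5, IFNAR and WT. Gclc, the rate-limiting enzyme of glutathione synthesis, had 0 counts in HSC and 4 counts in MPP labelled N5, against 423 to 1710 counts in the other 6 libraries. Among those 6, the libraries labelled DKO had 1710 counts in HSC and 563 in MPP. The cause of the low Gclc counts under N5 was not tested. Foxo1 showed the reverse, with 1054 counts in HSC labelled IFNAR and 0 to 136 in the other 7 libraries.

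Across the table, 136 genes had 0 counts in exactly 1 library and at least 500 counts in each of the other 7. The lone 0 fell in an HSC library for 119 of them, with 18 under the label N5, 41 under IFNAR, 20 under DKO and 40 under WT, and in an MPP library for 17. The 10 genes had no such 0, their lowest count being 2136. The cause of these gaps was not tested.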
